A study of Mus musculus with 8 samples.

Results

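The Tdpoz and Dub genes are small multicopy mouse families that are transcribed in the early embryo. Members were taken by name: the entries Tdpoz1, Tdpoz2, Tdpoz3, Tdpoz4, Tdpoz5, Dub1 and Dub1a, in RNA-seq values of whole embryos. Of these 7 names, 6 were among the 23234 listed genes, and Tdpoz5 was not listed. The study set embryos from wild-type oocytes beside embryos from oocytes without Tet3, the dioxygenase that oxidizes methylated cytosine in the zygote, and asked which transcripts the loss alters. Wild-type females were f/f, carrying the floxed Tet3 allele on both chromosomes, and whether they also had Cre is not stated in the labels. Females of the other group were f/- with Zp3-Cre, a transgene active in growing oocytes, and the embryos are called Tet3-null after the egg. Eggs of both groups were fertilized in vitro by CAST/EiJ sperm, which brings a Tet3 allele that Cre in the egg has not met. Each library came from a pool, of 10 embryos at the 2-cell stage 30 h after fertilization or of 7 blastocysts at 96 h. There were 2 libraries in each of 4 groups, and the ages of the mice are not given in the labels.

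TDPOZ proteins join a TRAF (MATH) domain, which binds substrates, to a POZ (BTB) domain, which docks on cullin 3. This is the layout of SPOP, a substrate adaptor of cullin 3 ubiquitin ligases. The Dub genes, also called Usp17l genes, encode ubiquitin-specific proteases, which remove ubiquitin from proteins. Dub1 was first described as an immediate-early gene induced by interleukin-3 in blood cells, and Dub1a as a cytokine-inducible relative of B lymphocytes. Both families are known for transcription at the 2-cell stage, when the mouse embryonic genome is activated. Their copies lie in clusters on chromosomes 3 (Tdpoz) and 7 (Dub).

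The members are close copies, and this bears on every value below. In the GENCODE M21 models the coding sequences of the 5 Tdpoz members had 72.4% (Tdpoz4 and Tdpoz5) to 88.2% (Tdpoz1 and Tdpoz3) identity, and those of Dub1 and Dub1a had 81.1%. Of the stretches of 50 bases in the coding sequence, another gene's transcript also held 63.0% for Tdpoz1, 49.1% for Tdpoz2, 66.1% for Tdpoz3 and 41.0% for Tdpoz4. The overlap was mostly with unnamed copies: Tdpoz1 shared 61.8% of its stretches with Gm9125 and Tdpoz3 shared 66.1% with Gm4982. Dub1 (20.5%) and Dub1a (24.3%) were more distinct, whereas each stretch of Tdpoz5 lay also in Gm10697, which was listed at 0 in every library. How reads shared by copies were assigned is not given in the sources used here, so the levels of single copies are uncertain.

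Between most copies of a family the sequence before the annotated start of transcription also differed, and some of the compared windows are offset. RefSeq starts (build GRCm38.p6) were found for the members Tdpoz1, Tdpoz4, Tdpoz5, Dub1 and Dub1a, and for 5 further entries of the families. The 250 bases before each start were searched on both strands for TATAAA (the TATA box), TAATCC (a core bound by bicoid-type homeodomain proteins such as OTX2) and CCAAT (the CCAAT box), of which the last 2 can overlap by CC. Of all 32851 windows of this length, 12.4% held TATAAA, 6.3% TAATCC and 33.8% CCAAT. The last 150 bases are printed for Dub1a, Dub1 and Usp17l5 (called Usp17lc in RefSeq), to show the TATA region of the Dub genes, and for Tdpoz1 and 2 relatives, Gm9125 and Gm4858 (called Tdpoz9 and Tdpoz8 in RefSeq), which share the TAATCC element. Tdpoz4 is printed as a Tdpoz gene without it, and Tdpoz5 and Gm10697 also held none. Capitals mark the motifs, and ATTGG is CCAAT on the opposite strand.
Dub1a, chr7:104842584-104842733, minus strand: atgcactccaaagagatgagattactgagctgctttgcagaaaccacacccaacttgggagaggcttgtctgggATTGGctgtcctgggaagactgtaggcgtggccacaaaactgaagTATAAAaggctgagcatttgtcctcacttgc
Dub1, chr7:104856866-104857015, plus strand: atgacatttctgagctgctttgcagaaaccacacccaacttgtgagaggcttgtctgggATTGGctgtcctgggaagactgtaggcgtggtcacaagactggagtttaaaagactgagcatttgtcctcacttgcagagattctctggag
Usp17l5, chr7:103416546-103416695, plus strand: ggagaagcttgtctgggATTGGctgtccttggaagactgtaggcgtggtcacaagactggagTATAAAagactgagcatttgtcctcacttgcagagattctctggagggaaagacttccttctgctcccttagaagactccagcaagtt
Tdpoz1, chr3:93676284-93676433, minus strand: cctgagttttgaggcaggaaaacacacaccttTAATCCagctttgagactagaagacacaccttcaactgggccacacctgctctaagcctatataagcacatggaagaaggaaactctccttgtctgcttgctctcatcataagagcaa
Gm9125, chr3:94054886-94055035, minus strand: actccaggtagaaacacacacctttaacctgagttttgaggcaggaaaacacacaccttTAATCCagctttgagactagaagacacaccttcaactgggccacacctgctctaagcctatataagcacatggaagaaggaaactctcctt
Gm4858, chr3:93068673-93068822, plus strand: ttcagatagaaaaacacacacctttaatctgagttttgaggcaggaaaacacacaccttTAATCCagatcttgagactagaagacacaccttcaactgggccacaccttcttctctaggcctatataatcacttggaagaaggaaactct
Tdpoz4, chr3:93796248-93796397, plus strand: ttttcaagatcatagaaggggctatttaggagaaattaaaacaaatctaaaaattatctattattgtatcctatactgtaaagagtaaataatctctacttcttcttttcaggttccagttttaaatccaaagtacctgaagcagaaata

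In Dub1a, TATAAA lay 31 to 26 bases before the start. Dub1 held no TATAAA, and its aligned bases differed from that of Dub1a by A2T, counted from 1 at the first T of the motif. Over the 250 bases the 2 sequences had 72.9% identity, but their windows are offset. The nearest CCAAT on the opposite strand lay 76 to 72 bases before Dub1a and 91 to 87 before Dub1. TATAAA lay further from the RefSeq start in Usp17l5, at 88 to 83 bases, and in Dub2a, at 110 to 105. CCAAT on the opposite strand was found before each of these 4 Dub starts. Among the Tdpoz starts, TAATCC lay 118 to 113 bases before Tdpoz1 and 91 to 86 before both Gm9125 and Gm4858. Upstream identity was 79.9% between Tdpoz1 and Gm9125 and 44.4% between Tdpoz1 and Tdpoz4. The windows of Tdpoz1 and Gm9125 are offset, as the places of TAATCC show, so 79.9% understates their likeness. From TAATCC to the end of the Gm9125 window their printed bases are the same. Tdpoz4 had 91.1% identity to the bases before a second RefSeq start of Gm4858 and 47.9% to those before its first, so the annotated starts of these copies are not at matching places. The GENCODE models of Tdpoz4, Tdpoz5 and Dub1a hold only coding sequence, and their annotated start may not be where transcription begins. CG dinucleotides, the sites of cytosine methylation, numbered 0 in the 250 bases before Tdpoz1 and Tdpoz4, 1 before Dub1 and Dub1a and 3 before Tdpoz5, against a median of 6 over all windows.

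Values are FPKM, fragments scaled to transcript length and to the mapped fragments of the library, so that a level is relative to the rest of its library. A comparison between genes depends on the length of each transcript model, and the annotation used for the FPKM is not given. In GENCODE M21 the model has 1407 bases for Dub1a, 2656 for Dub1, 2237 for Tdpoz1 and 1098 for Tdpoz3. In such bulk samples fewer cells of a type and less RNA per cell cannot be told apart. Read totals are not given. The summed FPKM ranged from 600495 to 634816 in 2-cell libraries and from 924556 to 956335 in blastocyst libraries, and Pearson's r across genes between libraries of a group from 0.943 to 0.982. Replicate 2 of the Tet3-null 2-cell group stood apart: it listed 7101 genes at 0, against 5549 to 6080 in the other 2-cell libraries. The members' changes at this stage are therefore given with and without it. Over all genes, calls between genotypes there were 83 higher and 285 lower with it, and 63 and 251 without it. Tet3 itself was at 10.8 and 7.54 FPKM in wild-type against 3.28 and 4.41 in Tet3-null 2-cell libraries. The deleted part of the gene is not named in the labels, so this gene-level value does not test the deletion. Of the 5 2-cell markers Zscan4d and Zscan4c were listed at 0 in all blastocyst libraries, and the highest of the others there was Tcstv1 at 1.86 FPKM. The 7 trophectoderm markers summed to 33.2 to 45.1 FPKM in 2-cell and 2712 to 4496 in blastocyst libraries, and 7 inner cell mass markers to 169 to 198 and 330 to 366. In that set Nanog had 134 to 167 in 2-cell and 114 to 145 in blastocyst libraries, and Gata4 had 4.54 to 16.4 and 1.68 to 4.23. Of 10 cumulus and granulosa markers 9 stayed under 1 FPKM in every group, the exception being Amhr2. Whether the paired pools of a group were gathered from different females or on different days is not given, and the p-values then describe the scatter of these pools alone, which may be technical.

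Dub1a had the highest FPKM of the members in each 2-cell library. It stood at 537 and 502 FPKM in wild-type against 458 and 403 FPKM in Tet3-null libraries. The level in wild-type was above 99.2% of all listed genes. Dub1, whose product is the founding enzyme of the family, stood at 52.0 and 41.1 FPKM in wild-type against 46.4 and 60.3 in Tet3-null libraries. Dub1a was thus 6.68 to 12.2 times as high as Dub1 in FPKM in each 2-cell library, a ratio that depends on the lengths of their models.

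Tdpoz1 led the Tdpoz members with 40.4 and 38.1 FPKM in wild-type against 41.5 and 38.6 in Tet3-null 2-cell libraries. Tdpoz4 followed with 24.7 and 22.5 in wild-type against 25.2 and 16.1 in Tet3-null. Tdpoz2 was at 23.2 and 22.7 in wild-type against 19.8 and 14.2 in Tet3-null. The libraries of Tdpoz4 and Tdpoz2 overlapped in both genotypes, so their order was not resolved. Tdpoz3, which among the members has the coding sequence most like that of Tdpoz1, was the lowest, at 5.64 and 5.36 in wild-type against 4.07 and 3.90 in Tet3-null. Tdpoz1 was 7.10 to 10.2 times as high as Tdpoz3 in FPKM in the same library, which also depends on the model lengths. The pair shared 3.1% of the 50-base stretches of Tdpoz1. The order Dub1a, Dub1, Tdpoz1, then Tdpoz4 with Tdpoz2, then Tdpoz3 was the same in wild-type and Tet3-null embryos, and Dub1 and Tdpoz1 did not overlap. Summed over the 4 listed Tdpoz members, wild-type 2-cell embryos had 91.3 ± 3.75 FPKM (SD, n = 2), and the 2 Dub members had 566 ± 32.2.

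**Figure D1:**
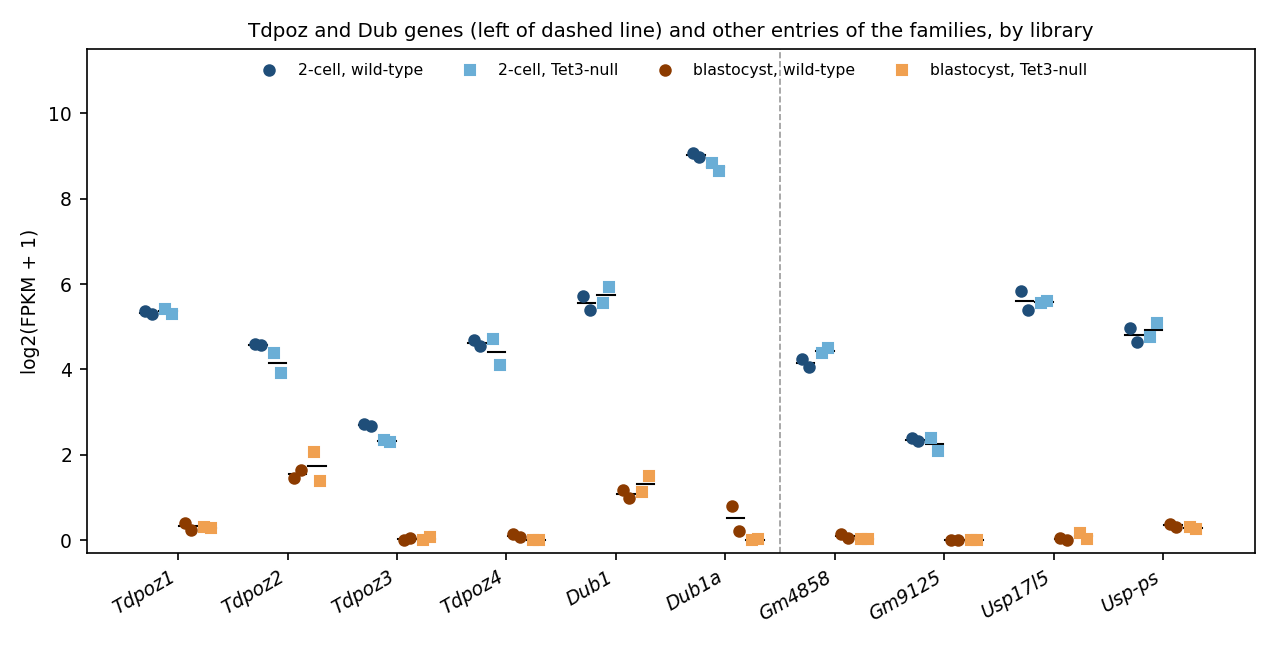
Level of each gene, log2(FPKM + 1), in every library; points are the 2 libraries of a group and the short bar is their mean. All 2-cell points lie above all blastocyst points of the same gene, and Tdpoz2 and Dub1 keep the highest blastocyst levels.

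In blastocysts the members had nearly disappeared, but not evenly. Tdpoz2 kept the highest mean level in both genotypes, with 1.73 and 2.13 FPKM in wild-type against 3.20 and 1.62 in Tet3-null. Dub1 kept 1.26 and 0.988 in wild-type against 1.17 and 1.85 in Tet3-null. It lay above Tdpoz2 in the second Tet3-null library, so their order was not resolved in Tet3-null blastocysts. Tdpoz1 was at 0.320 and 0.183 in wild-type against 0.232 and 0.221 in Tet3-null. These 3 genes were detected in all 4 blastocyst libraries. Dub1a, the leader at the 2-cell stage, was at 0.746 and 0.170 FPKM in wild-type blastocysts and at 0 and 0.0184 in Tet3-null ones. Tdpoz4 was at 0.0981 and 0.0580 in wild-type and listed at 0 in both Tet3-null libraries. Tdpoz3 was listed at 0 in the first library of each genotype and at 0.0279 (wild-type) and 0.0488 (Tet3-null) in the second. No 0 was listed for any of 8 housekeeping genes.

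The decline from the 2-cell stage passed the test for each listed member in both genotypes. The test was limma on log2(FPKM + 1), fitted to all 8 libraries with Benjamini-Hochberg adjustment over 13549 genes, and called at an adjusted p of 0.05. A gene entered it when 2 or more libraries reached 1 FPKM. Tdpoz1, Tdpoz3, Tdpoz4 and Dub1a reached 1 FPKM in the 4 2-cell libraries alone and so passed this filter through the stage where they are high. They had to differ by stage, and the count of declines supports nothing in itself. Background is given for scale: 38.4% of all genes tested were called lower and 35.8% higher in wild-type blastocysts, and 35.1% lower and 38.9% higher in Tet3-null ones.

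Dub1a had the largest decline, with a log2 change of -8.51 ± 0.21 (SE, limma adjusted p = 3.2e-07) in wild-type and -8.74 ± 0.21 (adjusted p = 2.5e-07) in Tet3-null embryos. Of all genes tested, 0.192% in wild-type and 0.214% in Tet3-null declined by as much. Its wild-type mean fell from 520 ± 24.6 to 0.458 ± 0.408 FPKM (SD, n = 2), 1135-fold. For Tdpoz1 the log2 change was -5.01 ± 0.16 in wild-type (adjusted p = 7.8e-07, limma) and -5.07 ± 0.16 in Tet3-null (adjusted p = 6.3e-07), and its means fell 156-fold and 177-fold. Tdpoz4 changed by -4.51 ± 0.23 in wild-type and Dub1 by -4.48 ± 0.23, with 2.01% and 2.05% of all genes as low. Their means in wild-type fell 303-fold and 41.4-fold. The 2 genes thus had nearly equal changes on the log2(FPKM + 1) scale, which understates the decline of a gene that ends near 0. As low a change as that of Tdpoz1 was found in 1.57% of all genes in wild-type and 1.62% in Tet3-null, and in Tet3-null 2.34% were as low as Tdpoz4 and 2.25% as low as Dub1.

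Tdpoz2 and Tdpoz3 had the smallest changes of the members on the log2(FPKM + 1) scale, which for Tdpoz3 depended on the pseudocount. Tdpoz2 changed by -3.03 ± 0.27 in wild-type (adjusted p = 4.8e-05, limma) and -2.42 ± 0.27 in Tet3-null embryos (adjusted p = 0.00014). Its means fell 11.9-fold and 7.05-fold. Tdpoz3 changed by -2.68 ± 0.16 and -2.28 ± 0.16 from a 2-cell level of only 5.50 ± 0.194 FPKM in wild-type and 3.98 ± 0.114 in Tet3-null (SD, n = 2). Its means fell 394-fold and 163-fold, and with a pseudocount of 0.1 the changes were -5.63 and -5.07, where those of Tdpoz2 were -3.51 and -2.82. Changes as low as those of Tdpoz2 and Tdpoz3 were found in 5.92% and 8.04% of all genes in wild-type against 9.43% and 10.6% in Tet3-null. The 6 members had a median change of -4.50 in wild-type and -4.42 in Tet3-null, where all genes tested had medians of -0.08 and 0.09. The limit of the filter stated above holds for these medians too.

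**Figure D2:**
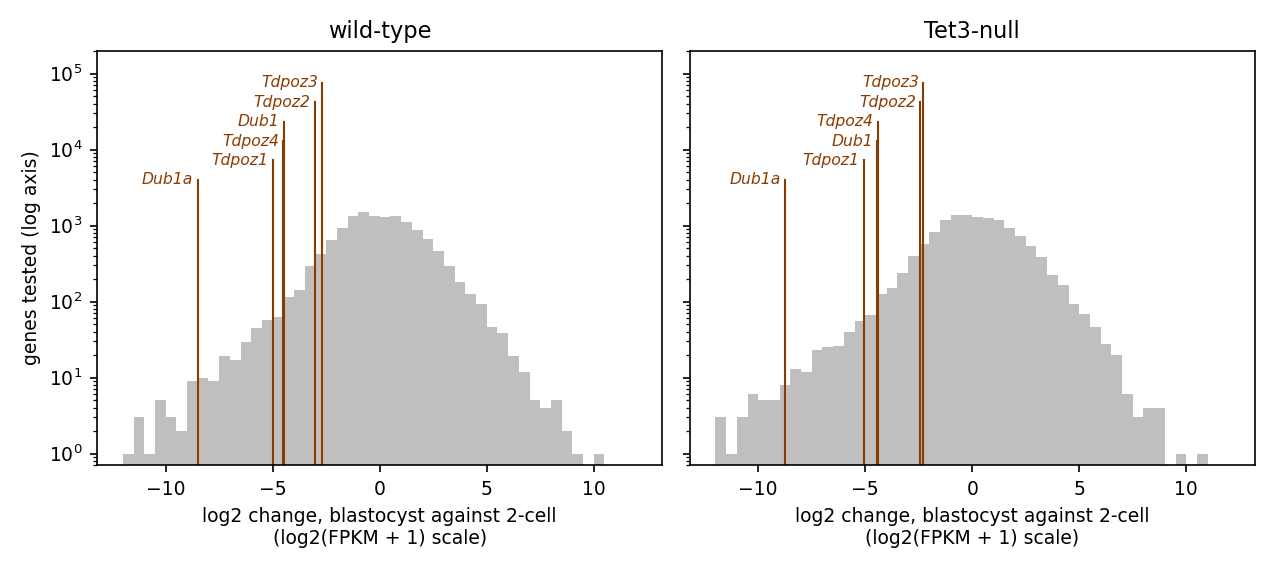
Log2 change from 2-cell to blastocyst on the log2(FPKM + 1) scale for all 13549 genes tested (grey, number of genes on a log axis) with the 6 listed members as lines, in wild-type and Tet3-null embryos. Dub1a lies in the far lower tail in both. Tdpoz2 and Tdpoz3 lie nearest to the bulk on this scale, and Tdpoz3 reaches -5.63 in wild-type with a pseudocount of 0.1.

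The makeup of each family therefore turned over between the stages. Tdpoz1 held 42.9% to 53.0% of the summed Tdpoz FPKM in 2-cell libraries and 6.78% to 14.9% in blastocyst libraries. Tdpoz2 held 19.5% to 25.6% in 2-cell libraries and 80.5% to 93.2% in blastocysts. For the Dub pair, Dub1a held 87.0% to 92.4% of the summed FPKM at the 2-cell stage, and Dub1 held 62.8% to 100% in blastocysts. The stages did not overlap in any of these shares, in either genotype. The blastocyst sums were low, 1.89 to 3.43 FPKM for Tdpoz and 1.16 to 2.00 for Dub, so these shares divide small values. Oocyte markers declined over the same interval: 8 genes including Zp3, Gdf9 and Oosp1 summed to 1523 to 2362 FPKM in 2-cell libraries and to 1.36 to 2.23 in blastocyst libraries. Oosp1, Gdf9, Bmp15 and Nlrp5 are maternal products, and their part in the decline of the members was not tested.

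**Figure D3:**
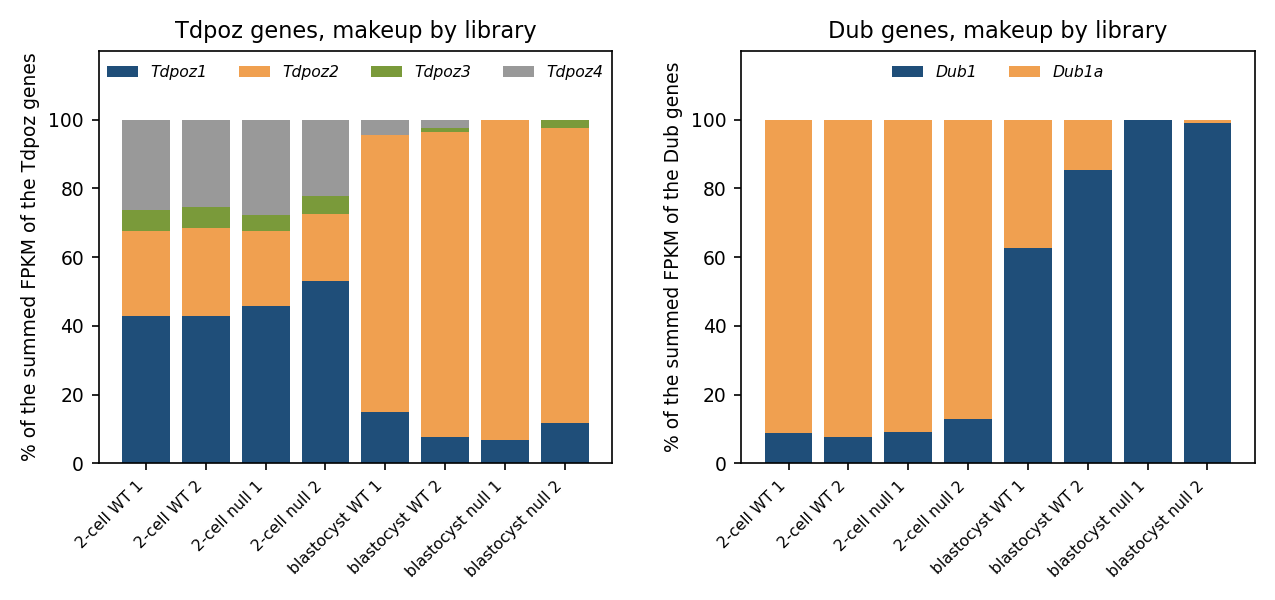
Share of each gene in the summed FPKM of the listed Tdpoz members (left) and Dub members (right), in percent, for each of the 8 libraries. Tdpoz2 takes over from Tdpoz1 and Tdpoz4, and Dub1 from Dub1a, in every blastocyst library.

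Loss of Tet3 from the oocyte gave no called difference in any of the 6 members at the 2-cell stage, where 2.72% of all genes tested were called. Of the 6, 1 (Tdpoz3) had an unadjusted p under 0.05, as had 23.7% of all genes. Tdpoz2 averaged 23.0 ± 0.348 FPKM in wild-type and 17.0 ± 3.95 in Tet3-null (SD, n = 2), a log2 change of -0.43 ± 0.27 (limma adjusted p = 0.36). Both Tet3-null libraries were below both wild-type ones, and the second Tet3-null library was much the lower. Without that library the change was -0.20, and without the first Tet3-null library it was -0.66. Tdpoz3 averaged 5.50 in wild-type and 3.98 in Tet3-null, a log2 change of -0.38 ± 0.16 with a 95% interval of -0.76 to -0.01 (limma adjusted p = 0.20). Its libraries did not overlap, and the change was -0.36 without the second Tet3-null library and -0.41 without the first. Its unadjusted p was 0.046.

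Dub1a averaged 520 FPKM in wild-type and 430 ± 38.6 (SD, n = 2) in Tet3-null 2-cell embryos, a log2 change of -0.27 ± 0.21 (adjusted p = 0.46, limma) that became 0.01 under scaling by medians of ratios. Its libraries did not overlap either, and the change was -0.18 without the second Tet3-null library and -0.37 without the first. Tdpoz2, Tdpoz3 and Dub1a were thus lower in both Tet3-null libraries, as were 34.9% of all genes tested, and these 3 of 6 members are to be read against that share. Tdpoz4 had a log2 change of -0.22 ± 0.23 (adjusted p = 0.60, limma). This turned to 0.09 without the second Tet3-null library and to 0.05 under scaling by medians of ratios. Without the first Tet3-null library it was -0.52. For Tdpoz4 the second Tet3-null library lay at 16.1 FPKM and the 3 other 2-cell libraries at 22.5 to 25.2. Tdpoz1 changed by 0.03 ± 0.16 (95% interval -0.35 to 0.41, adjusted p = 0.94, limma) and Dub1 by 0.19 ± 0.23 (-0.34 to 0.72, adjusted p = 0.65). These were 0.08 and 0.003 without the second Tet3-null library, -0.02 and 0.38 without the first, and 0.30 and 0.46 under scaling by medians of ratios. Tdpoz1 varied least: its 4 libraries span 38.1 to 41.5 FPKM.

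The scale of the libraries moved these small values. The median of all genes tested was -0.17 in this comparison, and the members' median was -0.25. Scaling by medians of ratios set the median of all genes to 0.02 and the members' median to 0.03. Under that scaling the called genes divided into 83 higher and 64 lower, against 83 and 285 without it. Tdpoz2 (-0.16) and Tdpoz3 (-0.15) stayed below 0. The 2-cell markers Zscan4d, Zscan4c, Zfp352, Tcstv1 and Tcstv3 summed to 1000 to 1214 FPKM in wild-type and 1347 to 1866 in Tet3-null libraries, although Zscan4d, Zscan4c and Zfp352 overlapped between genotypes. The 8 oocyte markers summed to 1523 to 1770 in wild-type and 1777 to 2362 in Tet3-null, and the 7 without Oosp1 to 300.1 to 375 and 247 to 369. Their part in the members' values was not tested.

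**Figure D4:**
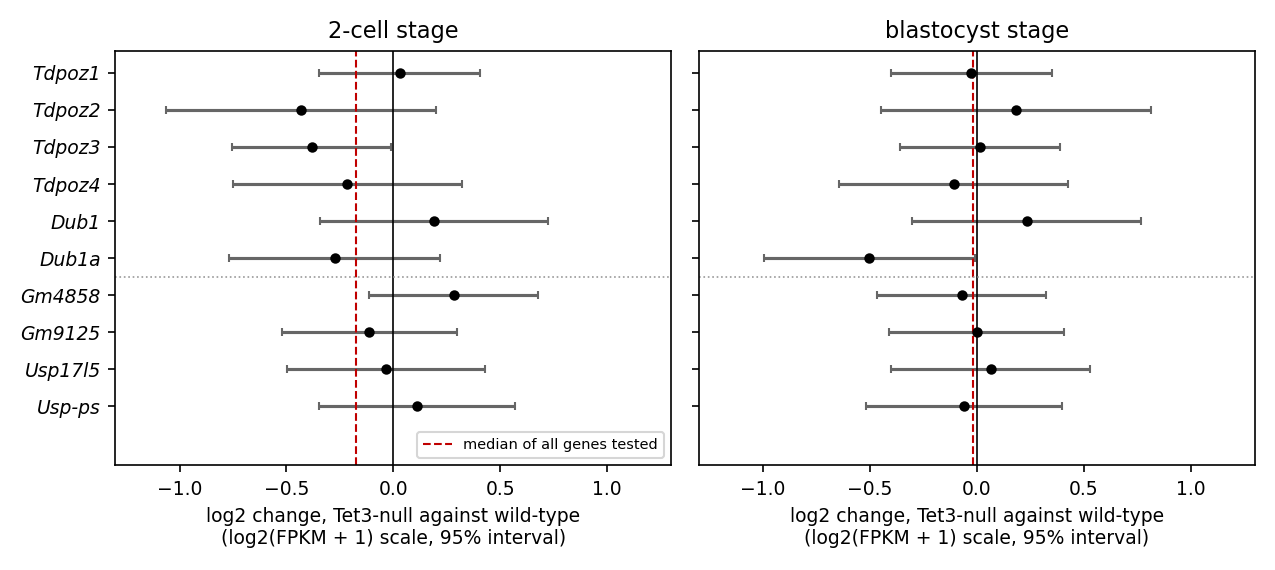
Log2 change, Tet3-null against wild-type, on the log2(FPKM + 1) scale with 95% intervals, at the 2-cell stage (left) and in blastocysts (right), for the listed members above the dotted line and other entries of the families under it. The dashed red line is the median of all genes tested, and the intervals of Tdpoz3 on the left and Dub1a on the right end at -0.01. The signs of Dub1a, Tdpoz4, Gm9125 and Usp17l5 at the 2-cell stage turn under scaling by medians of ratios.

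At the blastocyst stage no member was called either, where 0.0664% of all genes were, and 1 (Dub1a) had an unadjusted p under 0.05. Dub1a came nearest, with the 0.458 ± 0.408 FPKM of wild-type against 0 and 0.0184 in the Tet3-null libraries. The log2 change was -0.50 ± 0.21, with an unadjusted p of 0.047 and a limma adjusted p of 0.91, and 5.46% of all genes had an unadjusted p under 0.05. The change was -0.21 without the first wild-type blastocyst library, -0.79 without the second and -2.13 with a pseudocount of 0.1. The wild-type libraries were at 0.746 and 0.170, and the Tet3-null libraries lay below both. Tdpoz4 also lay below both wild-type values in both Tet3-null libraries, which list it at 0. Those 2 of 6 members compare with 25.3% of all genes that lay lower without overlap. The other 4 members overlapped between genotypes, with log2 changes from -0.03 (Tdpoz1) to 0.23 (Dub1) and adjusted p-values of 1 in limma. The 7 trophectoderm markers summed to 4184 to 4496 FPKM in wild-type and 2712 to 2954 in Tet3-null blastocysts, and their part in these values was not tested.

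The difference of the Tet3-null effect between stages was not called for any member, against 0.14% of all genes, and none had an unadjusted p under 0.05, as 14.4% of all genes had. It was largest for Tdpoz2, at 0.61 ± 0.38 (blastocyst minus 2-cell, adjusted p = 0.49 in limma), and for Tdpoz3, at 0.40 ± 0.22 (adjusted p = 0.45). The 95% interval for Tdpoz2 was -0.28 to 1.51, which spans both directions. This contrast and the stage contrasts use the same 4 groups as the genotype comparisons and are not independent of them.

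A further 6 listed entries belong to the families by their RefSeq names: Gm4858, Gm9125 and Gm10697 to Tdpoz, and Usp17l5, Dub2a and Usp-ps (Usp17le-ps, a pseudogene) to Dub. Usp17l5 lay in the range of Dub1, at 56.0 and 40.7 FPKM in wild-type against 45.7 and 47.6 in Tet3-null 2-cell libraries, and at most 0.121 in blastocysts. Dub2a, whose coding sequence is 98.4% identical to that of Usp17l5, was listed at no more than 5.5e-07 FPKM in any library. Both copies share 61.5% of their coding stretches of 50 bases, so the split of FPKM between them is uncertain. The pseudogene Usp-ps had 24.1 to 32.8 FPKM at the 2-cell stage and 0.207 to 0.302 in blastocysts.

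Gm4858 had 18.1 and 15.8 FPKM in wild-type against 19.8 and 21.7 in Tet3-null 2-cell libraries, with a log2 change of 0.28 ± 0.17 (adjusted p = 0.34, limma) and no overlap, as 12.6% of all genes had in that direction. The change was 0.22 without the second Tet3-null library and 0.34 without the first. Tdpoz4, similar to it upstream, had the opposite sign, which turned under scaling by medians of ratios, and neither was called. Gm9125, which carries most of the coding stretches of Tdpoz1, had 3.28 to 4.24 FPKM at the 2-cell stage and was listed at 0 in all blastocyst libraries. Usp17l5, Usp-ps, Gm4858 and Gm9125 reached 1 FPKM in the 2-cell libraries alone and so had to differ by stage. They were lower in blastocysts of both genotypes, with log2 changes from -5.58 (Usp17l5) to -2.35 (Gm9125) in wild-type. None was called between genotypes at either stage.

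Partners of a TRAF-POZ protein were present at both stages. Cul3, the scaffold of the ligase, had 162 and 186 FPKM in wild-type 2-cell and 26.0 and 23.5 in wild-type blastocyst libraries, and Spop, the best known adaptor, 18.2 and 17.2 against 7.21 and 9.04. These 2 were picked for their role after their values were seen. Of 34 genes of cullin 3 ligases and neddylation, 13 rose and 14 fell from the 2-cell stage to the blastocyst in wild-type, and 12 rose and 12 fell in Tet3-null. Both are near the shares over all genes, 35.8% higher and 38.4% lower in wild-type, with 38.9% and 35.1% in Tet3-null. The largest fall was in Kbtbd7, a BTB adaptor, from 18.4 and 14.4 to 0.365 and 0.174 FPKM in wild-type (log2 change -3.77, adjusted p = 7.4e-06 in limma). Kbtbd7 reached 1 FPKM in the 2-cell libraries alone and so had to differ by stage. The largest rises were in Ube2m, the NEDD8-conjugating enzyme (3.79), and Cops5, which removes NEDD8 from cullins (3.01). No gene of this list was called between genotypes. The list's median change, -0.17 in wild-type, was near that of all genes. The members had -4.50, but most of them entered the test through the 2-cell libraries alone, so no contrast is drawn from it.

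Other genes listed for a TRAF or MATH-like domain differed among themselves. Traf7, among the largest rises, was included by its name, so not every gene of the list need have the domain. Of 11 tested, 2 rose and 5 fell in wild-type and 3 rose and 5 fell in Tet3-null, where 38.4% and 35.1% of all genes fell and 35.8% and 38.9% rose. Siah2, a RING ubiquitin ligase, had 314 to 401 FPKM in 2-cell libraries and at most 0.810 in blastocysts, with a log2 change of -7.77 in wild-type (adjusted p = 4.3e-07, limma). That decline was larger than that of any Tdpoz member. Siah2 too passed the filter through the 2-cell libraries alone and had to differ by stage. Traf2, an adaptor of TNF receptors, had 8.06 and 8.15 FPKM in wild-type against 4.89 and 4.02 in Tet3-null 2-cell embryos and was not called (adjusted p = 0.059, limma). Without the first Tet3-null 2-cell library its log2 change was -0.86. That omission gave -2.3 for Usp22, 1.35 for Usp26 and -0.80 for Myc of the other lists, and 1.44 for the 2-cell gene Gm8300. None of these genes was called with all libraries. Only some list genes were followed there, and calls over all genes also multiplied under that omission.

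Among 49 tested genes taken by symbol as other ubiquitin-specific proteases, 7 rose and 29 fell from the 2-cell stage to the blastocyst in wild-type. In Tet3-null 11 rose and 24 fell. Symbols alone decided this list, which holds Usp6nl too, so not every gene need be a protease. Over all genes 35.8% rose and 38.4% fell in wild-type, with 38.9% and 35.1% in Tet3-null. Their median change was -0.98 in wild-type, where Dub1 had -4.48 and Dub1a -8.51. This is a description, since Dub1a reached 1 FPKM in the 2-cell libraries alone and had to differ by stage. Usp50 had the largest decline, from 36.9 and 44.9 to 0.252 and 0.257 FPKM in wild-type (-5.06, adjusted p = 1.3e-06, limma). A stage difference was fixed for Usp50 as well, since only 2-cell libraries reached 1 FPKM. Usp5, which takes apart free ubiquitin chains, rose the most, by 2.74 in wild-type. It was also the 1 protease called between genotypes, at 3.63 and 4.27 FPKM in wild-type against 1.29 and 1.74 in Tet3-null 2-cell libraries (log2 change -0.98 ± 0.19, limma adjusted p = 0.047). That call was lost under most alternatives, with adjusted p = 0.086 under scaling by medians of ratios and 0.050 without the second Tet3-null library.

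The interleukin-3 pathway that induces Dub1 in blood cells was described by 19 genes. Of these 12 passed the filter, as did 58.3% of all listed genes, and 3 of the 12 rose and 5 fell in wild-type, against the shares of 35.8% and 38.4% of all genes. Il3 itself did not exceed 0.332 FPKM in any library. Jak2, the kinase that couples the interleukin-3 receptor to STAT5, declined from 82.6 and 78.9 to 1.79 and 1.19 FPKM in wild-type (-5.05, adjusted p = 1.1e-06, limma). Cish, a STAT5 target, moved the other way, from 0 and 0.716 to 15.1 and 16.4. It reached 1 FPKM in the blastocyst libraries alone and so had to differ by stage. No gene of the list was called between genotypes.

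All 21 tested genes of a list of other 2-cell-stage genes fell in blastocysts of both genotypes, with a median change of -5.92 in wild-type and -6.17 in Tet3-null. The list was chosen for this pattern, so the count is a description. Gm4850 had the largest decline, -10.39 in wild-type, and Zfp352, a zinc finger gene of 2-cell embryos, changed by -8.06. Dub1a, at -8.51, lay with these, and the Tdpoz members lay between them and Zscan4e (-0.77). None of the 21 was called between genotypes at the 2-cell stage, where their median was 0.38, against -0.25 for the 6 members.

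Genes with the most similar profile were ranked by Pearson's r of log2(FPKM + 1) over the 8 libraries, as a description. With 2 stages far apart such r are high for many genes: 1003 genes exceeded 0.99 with Tdpoz1 and 898 with Dub1a, but 84 with Tdpoz2. Nearest to Tdpoz1 were Unc13c, Obox3, BC080695, AU015228 and E130008D07Rik. Obox3, of the oocyte-specific homeobox family by name only, had 1560 FPKM in wild-type 2-cell and 0.466 in blastocyst embryos on average. Nearest to Dub1a were Jak2, Tesc, Kif2a, Gm14420 and AY512931. Dub1 was followed by 2210009G21Rik, Parp12, Tcstv3, Rimklb and Gm5088.
Nearest to Tdpoz2 were Zfp677, Ap1ar, Adm, Gm6498 and Utp23, which differ in how much they kept in blastocysts. Adm had 35.9 FPKM in wild-type 2-cell and 0.131 in blastocyst embryos on average, Ap1ar had 13.1 and 4.55, and Utp23 had 78.9 and 15.3. Nearest to Tdpoz3 were Vwa3a, Ankar, Cnga1, Dnajc12 and Tob1, and nearest to Tdpoz4 were Fzd7, Tob2, Pcyt1a, Wdr44 and Dnahc11. Among the members themselves r was lowest between Tdpoz2 and Dub1, at 0.967, and highest between Tdpoz1 and Dub1a, at 0.999.

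The genes next to the members were not alike. They were counted outward from the outermost listed members, passing over other family entries, so they may lie between copies of a family. On one side of the Tdpoz cluster the nearest listed gene was Gm10696 (called Spopfm2 in RefSeq), which had 219 and 170 FPKM in wild-type against 228 and 234 in Tet3-null 2-cell libraries. Gm10696 fell to at most 0.647 FPKM in blastocysts, a log2 change of -7.15 in wild-type (adjusted p = 6.1e-07, limma), and so exceeded each Tdpoz member in level and in decline. Like those members it was bound to differ by stage, because it reached 1 FPKM in the 2-cell libraries alone. On the other side S100a10 and S100a11, which encode calcium-binding proteins, rose from 2.19 and 4.15 to 313 and 354 FPKM and from 25.9 and 42.8 to 1662 and 1883 in wild-type. Tchh, a gene of hair follicle sheath behind them, had 9.92 to 20.9 FPKM in 2-cell libraries and at most 0.258 in blastocysts. Further out, Them5 had the reverse pattern, listed at 0 in all 2-cell libraries and at 2.33 to 4.08 in blastocysts.

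Around Dub1 and Dub1a lie olfactory receptor genes, a family known from sensory neurons. On one side Olfr657, Olfr658, Olfr659, Olfr661 and Olfr663 did not exceed 0.130 FPKM in any library. On the other side Olfr665 had 2.48 and 4.50 FPKM in wild-type against 2.00 and 4.20 in Tet3-null 2-cell libraries. It was listed at 0 in 3 of 4 blastocyst libraries and at 0.0226 in the fourth (log2 change -2.13 in wild-type, adjusted p = 0.00064 in limma). As it passed the filter through the 2-cell libraries alone, it had to differ by stage. Olfr666, Olfr667 and Olfr669 also reached 0.953 to 1.37 FPKM in at least 1 2-cell library. In the gene order Olfr665 was the first listed gene outside the family after Dub1 and Dub1a. Reads that run past a gene's annotated end were not examined.

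**Figure D5:**
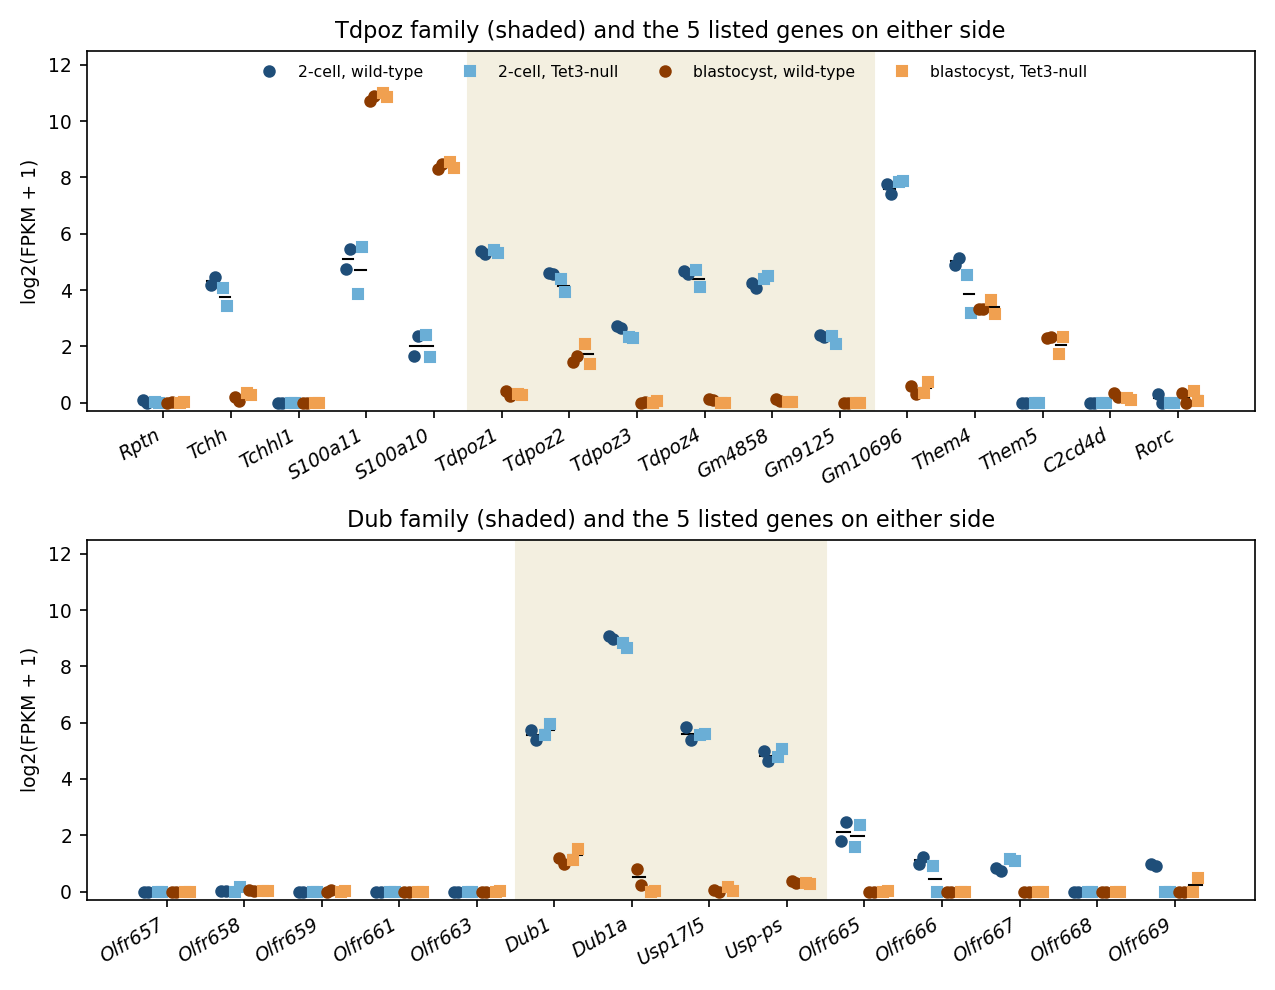
Level, log2(FPKM + 1), in each library for the families (shaded, not in map order) and 5 listed genes on either side, in the order of the gene table. These are the nearest genes outside the families, counted from the outermost listed members. Other shaded entries were passed over and may lie beyond them. Gm10696 (outside the family by name only) and Tchh share the 2-cell pattern of the Tdpoz genes. S100a10 and S100a11 have the reverse, and receptors on 1 side of the Dub genes have low 2-cell values.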

How the data were processed

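RNA-seq was made from pooled embryos in 8 libraries, with amplified SMARTer cDNA and a library kit that does not mark strand, per the labels' protocols. The authors deposited FPKM per gene. The submitters' processing notes name TopHat2 (2.0.10), Bowtie2 (2.1.0), Cufflinks (2.2.0) and the build mm9, with no settings, annotation or rule for shared reads. Read totals are not given, so depth and precision per library are unknown.

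From the deposited FPKM, log2(FPKM + 1) was computed and 13549 genes were kept that reached 1 FPKM in 2 or more libraries. limma 3.58.1 (R 4.3.3) was fitted with 4 group means and a trended prior, on 4 residual degrees of freedom plus 3.07 from the prior. All tests were two-sided, with Benjamini-Hochberg adjustment over all genes kept and calls at 0.05, and the fit was tested on simulated data. Groups follow the sample labels.

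The text names the members, their relatives, the 5 genes most like each member, the genes called between genotypes and the largest changes of each pathway list, and the 5 listed neighbours on each side. The members and lists were chosen with earlier results of these data known. Alternatives were a pseudocount of 0.1, no filter, median-of-ratios and quantile scaling, the 2 compared groups alone, a replicate block, and leaving out each library. Upstream sequences come from RefSeq (GRCm38.p6), coding sequences from GENCODE M21, and identities from global alignments in Biopython 1.88.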

Additional observations from a re-analysis of the deposited data

How the results depend on the processing

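No listed member was called between genotypes, or for the difference between stages, under any alternative. Calls of the 6 members as lower in blastocysts held throughout, but 4 of them entered the test through the 2-cell libraries alone, so this says nothing of stability. Direction and call held in 79 of 84 member values at the 2-cell stage, 80 of 84 in blastocysts and 66 of 78 for the difference between stages. No filter, the replicate block, the compared groups alone and omitted libraries of the other stage left the genotype log2 changes as they were. No filter and the replicate block did the same for the difference between stages. Directions could not turn under these alternatives, so the counts overstate stability. The causes of the changes below were not tested.

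The 368 genes called at the 2-cell stage became 243 with a pseudocount of 0.1, 147 under median-of-ratios scaling, 190 under quantile normalization, 3 with the 2 groups alone and 7 with the replicate block. Leaving out single libraries gave 8 (without the first wild-type blastocyst library) to 3453 (without the first Tet3-null 2-cell library). For the difference between stages, 19 calls became 35 without a filter, 12 with the replicate block, and 13 (without the first wild-type 2-cell library) to 1703 (without the first Tet3-null 2-cell library). In blastocysts the 9 calls, 2 higher and 7 lower, became 2 and 4 with the 2 groups alone and 1 and 5 with the replicate block. They became 2 and 6 without a filter and 3 and 8 with a pseudocount of 0.1. More were called when single libraries were left out. The replicate block changed no member's call. Same-numbered libraries deviated with r of -0.076 (2-cell) and 0.018 (blastocyst) across genes. With 2 libraries in a group this cannot show whether they were collected or processed together, and the labels do not say.

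At the 2-cell stage, median-of-ratios scaling turned the Tet3-null log2 change to 0.052 in Tdpoz4, 0.0062 in Dub1a, 0.109 in Gm9125 and 0.240 in Usp17l5, and quantile normalization turned the last pair to 0.121 and 0.10. Leaving out single libraries gave -0.021 to 0.081 in Tdpoz1, -0.521 to 0.090 in Tdpoz4, -0.257 to 0.030 in Gm9125, -0.260 to 0.191 in Usp17l5 and -0.052 to 0.274 in Usp-ps. In blastocysts it gave -0.107 to 0.052 in Tdpoz1, -0.157 to 0.522 in Tdpoz2, -0.020 to 0.049 in Tdpoz3 and -0.0063 to 0.136 in Usp17l5.

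For the difference between stages, median-of-ratios scaling gave -0.157 in Tdpoz4, -0.200 in Dub1, -0.109 in Gm9125 and -0.174 in Usp17l5, and quantile normalization -0.142, -0.101, -0.121 and -0.0024. A pseudocount of 0.1 gave -0.597 in Tdpoz4. Leaving out single libraries gave -0.136 to 0.023 in Tdpoz1, -0.198 to 0.413 in Tdpoz4, -0.152 to 0.239 in Dub1, -0.517 to 0.061 in Dub1a, -0.030 to 0.257 in Gm9125 and -0.126 to 0.325 in Usp17l5. Where a group is left with 1 library, that library is assumed to vary like the other groups. Unknown depth and shared reads limit values near 0.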
